A study of Mus musculus with 28 samples.

Results

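Heat shock chaperones and their co-chaperone Bag3 were examined as 10 genes chosen by name: Hspa1a, Hspa1b, Bag3, Dnajb1, Hsph1, Hspb1, Hspa8, Hsp90aa1, Hspa4l and Hspe1. The genes were chosen with earlier results of these data known. They are 10 of the 14711 genes listed in the deposited tables of a mouse study of seizure and ribosome-bound RNA in the CA1 region of the hippocampus. All 10 were found in each of the 6 joined tables, and because Hspa1a and Hspa1b are nearly the same in sequence they were also treated as 1 sum. After kainic acid the sum, Bag3, Dnajb1, Hsph1 and Hspb1 rose in both Cre lines and in both fractions. For Hspa4l the difference reached an edgeR adjusted p under 0.05 in none of these 4 comparisons.

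The mice were C57BL/6 animals of 3 to 4 weeks that carried LSL-Rpl22-HA/+, a ribosomal protein allele that gains an HA tag where Cre has acted. One line also carried CaMK2a-Cre/+, whose promoter is active in excitatory forebrain neurons, and the other carried PV-Cre/+, which is driven in parvalbumin interneurons. Animals received an intraperitoneal injection of kainic acid, an agonist of glutamate receptors that provokes seizures, or of PBS, and CA1 was collected after 6 h. Ribosomes were pulled down with 12 µg of anti-HA antibody per immunoprecipitation (IP), and the input was the lysate of the same pool before the IP. The 8 groups were the CaMK2a line after kainic acid (IP), after PBS (IP), after kainic acid (input) and after PBS (input), with 3 libraries each, and the same for the PV line, with 4 libraries each. A library was made from a pool of 4 mice in the CaMK2a line and of 9 to 10 mice in the PV line, from 20 ng and 2.5 ng of amplified RNA, so the lines also differ in pooling and in RNA amount. The deposited column names call the PBS groups 0 h.

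Heat shock proteins are chaperones: they bind unfolded protein chains, and most of them are made in larger amounts when folding is disturbed. HSP70 proteins bind and release clients in an ATP cycle that HSP40 partners such as Dnajb1 start and that nucleotide exchange factors such as Hsph1 and Bag3 reset, while small heat shock proteins such as Hspb1 hold unfolded chains. Many of their genes are switched on by heat shock factors, which bind repeats of the unit GAA in alternating direction, called heat shock elements.

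The promoters of 5 of the genes are given first, as the 250 bases before the start site from RefSeq on GRCm38.p6: the Hspa1a and Hspa1b pair to show how alike they are, and Bag3, Hspb1 and Hspe1 for the elements they hold. RefSeq windows were found for 8 of the 10 genes; Hspa8 and Hsp90aa1 had no entry. The windows are chr17:34972157-34972406 for Hspa1a and chr17:34959239-34959488 for Hspa1b, both on the minus strand, and chr7:128523333-128523582 for Bag3, chr5:135887669-135887918 for Hspb1 and chr1:55087898-55088147 for Hspe1, all on the plus strand. Each runs 5′ to 3′ up to the base before the start site, and capitals mark heat shock elements of 2 units (GAANNTTC or TTCNNGAA) and AP-1 sites (TGANTCA).
Hspa1a: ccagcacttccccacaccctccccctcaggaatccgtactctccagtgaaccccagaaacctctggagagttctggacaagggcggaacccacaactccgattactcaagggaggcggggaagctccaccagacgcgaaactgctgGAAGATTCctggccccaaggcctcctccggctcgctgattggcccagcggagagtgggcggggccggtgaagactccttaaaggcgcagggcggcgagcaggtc
Hspa1b: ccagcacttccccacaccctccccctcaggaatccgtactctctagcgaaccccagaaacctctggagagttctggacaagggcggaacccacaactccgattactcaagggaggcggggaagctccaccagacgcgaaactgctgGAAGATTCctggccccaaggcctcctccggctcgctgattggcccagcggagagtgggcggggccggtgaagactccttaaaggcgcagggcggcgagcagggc
Bag3: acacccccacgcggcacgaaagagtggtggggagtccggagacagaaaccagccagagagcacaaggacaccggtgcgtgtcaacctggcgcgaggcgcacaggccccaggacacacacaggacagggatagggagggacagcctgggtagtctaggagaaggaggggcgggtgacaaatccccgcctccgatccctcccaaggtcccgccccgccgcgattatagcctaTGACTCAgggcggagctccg
Hspb1: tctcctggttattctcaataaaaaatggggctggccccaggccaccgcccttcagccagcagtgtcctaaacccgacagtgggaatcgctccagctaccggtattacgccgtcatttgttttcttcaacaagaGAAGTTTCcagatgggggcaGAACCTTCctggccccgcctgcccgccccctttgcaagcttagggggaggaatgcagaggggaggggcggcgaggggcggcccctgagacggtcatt
Hspe1: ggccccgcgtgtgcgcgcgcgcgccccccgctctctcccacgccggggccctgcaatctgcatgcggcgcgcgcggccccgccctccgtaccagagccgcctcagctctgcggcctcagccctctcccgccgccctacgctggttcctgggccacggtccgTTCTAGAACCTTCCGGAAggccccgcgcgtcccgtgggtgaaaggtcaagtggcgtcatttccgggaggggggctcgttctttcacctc
Hspa1a and Hspa1b held the same 2-unit element, GAAGATTC, at bases -104 to -97, and their windows of 300 bases (250 before and 50 after the start) differed at 4 bases. Bag3 held an AP-1 site, TGACTCA, at bases -20 to -14, and its 2-unit element, GAAGTTTC, lay downstream of the start, at bases 43 to 50. Hspb1 held elements at bases -117 to -110 and -97 to -90. Hspe1 held 3 overlapping elements between bases -89 and -72, which form 2 overlapping 3-unit elements (a 2-unit element continued by NNGAA or NNTTC, so that the units alternate). Hsph1 held 3 elements of 2 units and 1 of 3 units in the nearest RefSeq window, whose start site lay 678 bases from that of the deposited table. Dnajb1 had no match to either form in its window. Hspa4l had none in the nearest RefSeq window, whose start site lay 1243 bases from that of the deposited table. Over 32817 RefSeq windows of 300 bases, 15.1% held a 2-unit element, against 6 of the 8 windows here. The nearly identical Hspa1a and Hspa1b windows are both among these 6 and are not independent. A 3-unit element was in 0.603% of all windows and in 2 of the 8 windows here. An AP-1 site was in 7.81% of all windows, and the cAMP response element TGACGTCA, found in none of the 8 windows, was in 1.79% of all. Each pattern was searched on both strands, and a match is a description of the letters only.

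In the deposited annotation (mm10, the same build), Hspa1a (GeneID 193740) is at chr17:34969359-34972156 and Hspa1b (GeneID 15511) at chr17:34956429-34959238, each a gene of 1 exon on the minus strand. Bag3 (29810) is at chr7:128523583-128546981, plus strand, with 4 exons, and Dnajb1 (81489) at chr8:83608175-83611903, plus strand, with 4 exons. Hsph1 (15505) is at chr5:149616843-149637014, minus strand, with 19 exons, and Hspb1 (15507) at chr5:135887919-135889563, plus strand, with 3 exons. Hspa8 (15481) is at chr9:40801273-40805199, plus strand, with 9 exons, and Hsp90aa1 (15519) at chr12:110691028-110696614, minus strand, with 11 exons. Hspa4l (18415) is at chr3:40744370-40791047, plus strand, with 21 exons, and Hspe1 (15528) at chr1:55088148-55091317, plus strand, with 4 exons. Reads from near copies cannot always be told apart: of all 75-base windows of their transcripts, 52.7% of Hspa1a's also occur in Hspa1b, 46.4% of Hspb1's in Hsp25-ps1, 36.2% of Hsp90aa1's in Gm12346, 30.2% of Hspa8's in Gm15459 and 11.9% of Hspe1's in AC117239.2. Bag3, Dnajb1 and Hsph1 shared no such window. Exons of Hspe1 overlap those of Hspd1 on the opposite strand by 112 bases and those of Hspa1a overlap Gm20481 by 377 bases, and the sources used here do not state whether counting used strand.

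The 28 libraries held 6061339 to 15847300 counted reads, of which the 10 genes took 0.100 to 0.690%. Parvalbumin (Pvalb) averaged 112 CPM (counts scaled to a common library total adjusted by TMM factors) in PV IPs after kainic acid and 151 CPM in PV IPs after PBS, against 5.98 and 11.7 CPM in the matching inputs. Camk2a ran from 6055 to 7149 CPM in CaMK2a IPs after kainic acid and from 7511 to 8833 CPM after PBS, against 5517 to 5809 and 6592 to 7470 CPM in their inputs. The PV IPs still held Camk2a, at means of 4880 CPM after kainic acid and 4359 CPM after PBS, against 7047 and 7910 CPM in their inputs. Slc17a7, the vesicular glutamate transporter of excitatory neurons, went the other way, with means of 764 and 882 CPM in CaMK2a IPs after kainic acid and PBS, against 1104 and 1186 CPM in their inputs. Of 6 tested markers of CA1 pyramidal cells, 3 were higher and 1 lower in the CaMK2a IP than in its input after kainic acid, and 5 higher and 1 lower after PBS. Of 6 tested markers of PV interneurons, 6 were higher in the PV IP than in its input after kainic acid and 5 after PBS. The IPs also held markers of other cells. The summed level of the astrocyte list was 1261 to 2457 CPM in CaMK2a IPs after kainic acid, 1342 to 2009 CPM in CaMK2a IPs after PBS, 3525 to 6580 CPM in PV IPs after kainic acid and 4586 to 6303 CPM in PV IPs after PBS, with every library of every input at 7957 CPM or more. Replicate 4 of the PV line stood apart by its share of mitochondrial reads, the lowest of each of its groups at 0.910% and 0.795% in IPs after kainic acid and PBS and 4.83% and 4.10% in inputs, so changes with kainic acid in the PV line are also given from replicates 1 to 3 below. A pool holds many cells, so fewer cells of a type and less RNA per cell cannot be told apart. Levels here and below are CPM with TMM factors over all 28 libraries, fold changes come from edgeR's quasi-likelihood test over all genes, an error after a fold change is its SE, and a call means a Benjamini-Hochberg adjusted p under 0.05 over all genes.

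Kainic acid raised most of the 10 genes in every fraction, with Hspa1a, Hspa1b, Hspb1 and Bag3 in front. Of the 10 genes, 8 rose in the CaMK2a IP, where 19.8% of 10663 tested genes were called higher and 15.3% lower. In the CaMK2a input 9 rose, against 19.3% of 11287 genes called higher and 15.7% lower. In the PV IP 6 rose, against 4.05% of 11107 genes called higher and 0.801% lower, and in the PV input 7 rose, against 8.21% of 11145 genes called higher and 3.36% lower. Hspb1 in all 4 comparisons and Hspa1b in the PV IP passed the count filter through the kainic acid group alone. By edgeR none of the 10 fell in any of the 4 comparisons, and the count of lower members was also 0 by DESeq2 and at an unadjusted p under 0.05. Their median log2 fold change was 2.12 in the CaMK2a IP, 2.01 in the CaMK2a input, 1.55 in the PV IP and 1.28 in the PV input, beside 0.007, -0.016, -0.023 and -0.022 over all tested genes. Upper-quartile in place of TMM factors moved the median of all genes in the CaMK2a IP to -0.094. Calls over all genes then stood at 1674 higher and 2276 lower in that IP (2111 and 1633 with TMM) and at 1896 higher and 2240 lower in the CaMK2a input (2180 and 1773 with TMM), with 8 and 9 of the 10 genes called higher as before. With the replicate number as a block the PV input had 8 of the 10 higher instead of 7, Hsp90aa1 being the addition, while the calls over all genes grew to 1835 higher and 1590 lower (915 and 374 without it). All kainic acid libraries lay above all PBS libraries for 9 of the 10 genes in each CaMK2a fraction and for 7 in each PV fraction. Of 12878 genes, 22.7% did so in the CaMK2a IP, 22.4% in the CaMK2a input, 6.90% in the PV IP and 11.1% in the PV input. In the same order 20.9%, 21.6%, 3.19% and 6.02% lay wholly below. Statements below that treatments did not overlap are read beside these shares.

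**Figure D1:**
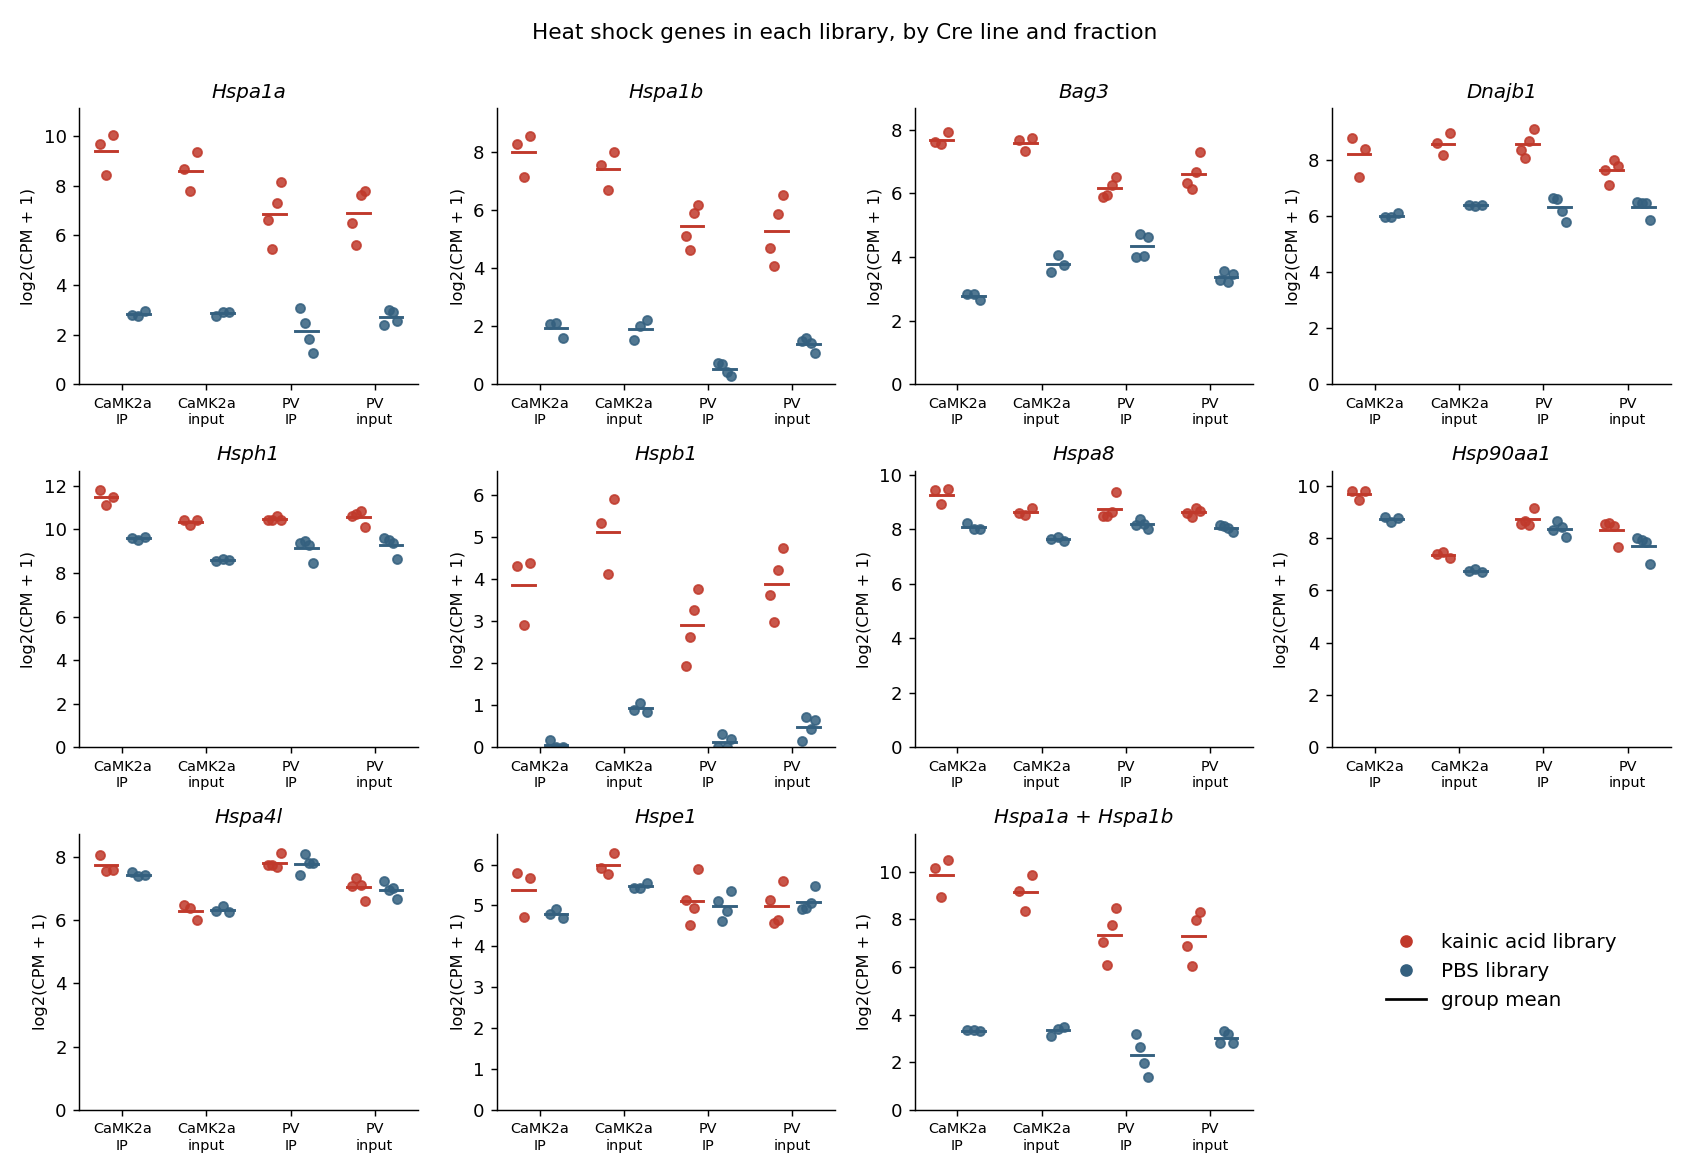
Level of each gene in each of the 28 libraries, as log2(CPM + 1), by Cre line and fraction. Red points are kainic acid libraries and blue points are PBS libraries, 3 per CaMK2a group and 4 per PV group, and bars are group means. Red and blue points do not overlap for Hspa1a, Hspa1b, Bag3, Dnajb1, Hsph1 and Hspb1 in any of the 4 fractions, whereas they overlap for Hspa4l in 3 of the 4 fractions. Of 12878 genes, 22.7% lay with all kainic acid libraries above all PBS libraries in the CaMK2a IP, 22.4% in the CaMK2a input, 6.90% in the PV IP and 11.1% in the PV input.

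The inducible HSP70 genes Hspa1a and Hspa1b, which fold damaged proteins and are nearly silent in unstressed brain, had some of the largest fold changes. Their sum was 1129, 484 and 1431 CPM in the 3 CaMK2a IPs after kainic acid, against 9.07, 9.13 and 8.86 CPM in the IPs after PBS. In the CaMK2a inputs it was 591, 323 and 920.2 CPM after kainic acid, against 7.66, 9.60 and 10.2 CPM after PBS. No library of one treatment came near one of the other, and pool 2 was the lowest of the kainic acid pools in both fractions. Among PV libraries the sum was 129.6, 66.1, 215 and 352 CPM in the IPs after kainic acid, against 8.12, 5.24, 2.85 and 1.59 CPM in the IPs after PBS. The PV inputs held 116, 63.8, 252 and 313 CPM after kainic acid, against 6.07, 8.87, 8.21 and 6.02 CPM after PBS. Again the treatments were far apart, and PV pool 2 was the lowest of the kainic acid pools in both fractions.

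On the log2 scale the sum rose by 6.82 ± 0.40 in the CaMK2a IP (edgeR adjusted p = 3e-06), by 6.08 ± 0.31 in the CaMK2a input (adjusted p = 6e-11), by 5.41 ± 0.54 in the PV IP (adjusted p = 5.2e-06) and by 4.64 ± 0.46 in the PV input (adjusted p = 4.6e-05). From PV replicates 1 to 3 alone the change was 4.65 in the PV IP and 4.19 in the PV input. Taken singly, Hspa1a changed by 6.92 ± 0.42, 6.10 ± 0.33, 5.16 ± 0.57 and 4.59 ± 0.45 in the CaMK2a IP, the CaMK2a input, the PV IP and the PV input, and Hspa1b by 6.59 ± 0.40, 6.04 ± 0.32, 6.63 ± 0.51 and 4.81 ± 0.54, each of the 8 called higher by edgeR. From PV replicates 1 to 3 alone Hspa1a changed by 4.32 in the PV IP and 4.21 in the PV input, and Hspa1b by 6.11 and 4.11. Hspa1a made up 70.9 to 73.8% of the counts of the pair in CaMK2a IPs after kainic acid and 63.4 to 76.9% after PBS. In PV IPs its share was 64.0 to 79.6% after kainic acid and 86.4 to 91.7% after PBS, which do not overlap, but the deposited counts do not say how reads common to both genes were assigned. Hspa1b had only 8, 8, 4 and 3 reads in the PV IPs after PBS. The PBS share there and the Hspa1b change of 6.63 in the PV IP therefore rest on few reads.

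Bag3, which ties HSP70 to small heat shock proteins and to autophagy of damaged proteins, rose in all 4 fractions but by very different amounts. It stood at 193, 186 and 239.7 CPM in the CaMK2a IPs after kainic acid, against 6.11, 6.18 and 5.26 CPM after PBS, and at 202, 159.5 and 213 CPM in the CaMK2a inputs after kainic acid, against 10.6, 15.8 and 12.4 CPM after PBS. The PV IPs held 58.6, 61.2, 75.8 and 90.1 CPM after kainic acid, against 15.1, 25.2, 15.3 and 23.5 CPM after PBS. The PV inputs held 78.1, 69.7, 101 and 157 CPM after kainic acid, against 8.66, 10.8, 8.33 and 10.1 CPM after PBS. All kainic acid libraries lay above all PBS libraries of either line, and among the PBS groups the PV IP was the highest and the CaMK2a IP the lowest. Bag3 rose by 5.15 ± 0.15 on the log2 scale in the CaMK2a IP (edgeR adjusted p = 3.4e-08), 3.89 ± 0.16 in the CaMK2a input (adjusted p = 3.2e-12), 1.83 ± 0.27 in the PV IP (adjusted p = 3.8e-04) and 3.39 ± 0.26 in the PV input (adjusted p = 6.6e-06). PV replicates 1 to 3 alone gave 1.80 ± 0.30 in the PV IP and 3.14 in the PV input.

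Hspb1, a small heat shock protein that holds unfolded chains and binds actin, was near or at 0 after PBS. Its level was 18.9, 6.55 and 19.9 CPM in the CaMK2a IPs after kainic acid, against 0.129, 0 and 0 CPM after PBS, and 39.7, 16.5 and 59.2 CPM in the CaMK2a inputs after kainic acid, against 0.833, 1.09 and 0.793 CPM after PBS. In the PV IPs it was 2.84, 5.17, 8.60 and 12.6 CPM after kainic acid, against 0, 0.235, 0 and 0.144 CPM after PBS, and in the PV inputs 11.3, 6.87, 17.6 and 25.7 CPM after kainic acid, against 0.112, 0.634, 0.342 and 0.554 CPM after PBS. No PBS library of any group reached the lowest kainic acid library. All 4 comparisons called it higher by edgeR, with the largest adjusted p, 0.00168, in the PV IP. With PBS counts this low it passed the count filter through the kainic acid group alone, so these calls are no independent support for a rise. Because so few reads fell on it after PBS, its size is better given as a ratio of summed counts scaled to depth: 387 against 2 counts in the CaMK2a IP, a ratio of 251 with an exact 95% counting interval of 69.1 to 2082; 869 against 28 in the CaMK2a input, 39.6 (27.2 to 59.9); 381 against 5 in the PV IP, 79.8 (33.9 to 247); and 568 against 17 in the PV input, 37.7 (23.3 to 65.1). These intervals cover counting error only. The fitted log2 change in the CaMK2a IP, 7.73, became 10.05 without PBS replicate 1, the only PBS library of that group with reads. In the PV IP the fitted change, 6.07, became 6.86 without PBS replicate 2 and 5.91 from replicates 1 to 3 alone, which gave 4.94 in the PV input.

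Dnajb1, the HSP40 partner that delivers clients to inducible HSP70, rose in all 4 fractions. It had 445, 168 and 338 CPM in the CaMK2a IPs after kainic acid, against 62.1, 61.6 and 67.6 CPM after PBS, and 386, 293 and 498 CPM in the CaMK2a inputs after kainic acid, against 83.4, 81.4 and 83.5 CPM after PBS. In the PV IPs it had 331, 270.5, 408 and 558 CPM after kainic acid, against 99.8, 97.2, 72.7 and 54.7 CPM after PBS, and in the PV inputs 202, 136, 254 and 221 CPM after kainic acid, against 89.0, 87.7, 88.8 and 57.3 CPM after PBS. The groups did not overlap in any fraction, and the PV IP reached the level of the CaMK2a fractions, unlike for Bag3. The log2 change was 2.32 ± 0.29 in the CaMK2a IP (edgeR adjusted p = 2.4e-04), 2.25 ± 0.15 in the CaMK2a input, 2.25 ± 0.25 in the PV IP and 1.31 ± 0.20 in the PV input (adjusted p = 0.00127). PV replicates 1 to 3 alone gave 1.89 ± 0.18 and 1.13 ± 0.15 in the PV fractions.

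Hsph1, an HSP110 that resets HSP70 and helps to dissolve aggregates, was the most abundant of the 10 genes per base after kainic acid in CaMK2a IPs, at 678 CPM per kb of listed length. Its level was 3562, 2264 and 2876 CPM there, against 785, 722 and 814 CPM after PBS, and 1388, 1165 and 1402 CPM in the CaMK2a inputs after kainic acid, against 378, 402 and 389 CPM after PBS. The PV IPs held 1393, 1398, 1557 and 1387 CPM after kainic acid, against 657, 716, 624 and 347 CPM after PBS, and the PV inputs 1584, 1699, 1858 and 1122 CPM after kainic acid, against 784, 732, 655 and 404 CPM after PBS. The groups were apart in all 4 fractions, with PV replicate 4 the lowest of each PV group. Hsph1 rose by 1.92 ± 0.15 on the log2 scale in the CaMK2a IP (edgeR adjusted p = 1.5e-05), 1.76 ± 0.10 in the CaMK2a input, 1.27 ± 0.20 in the PV IP and 1.26 ± 0.21 in the PV input (adjusted p = 0.00211). With PV replicate 4 left out of all groups the PV values were 1.10 ± 0.10 and 1.22 ± 0.08.

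**Figure D2:**
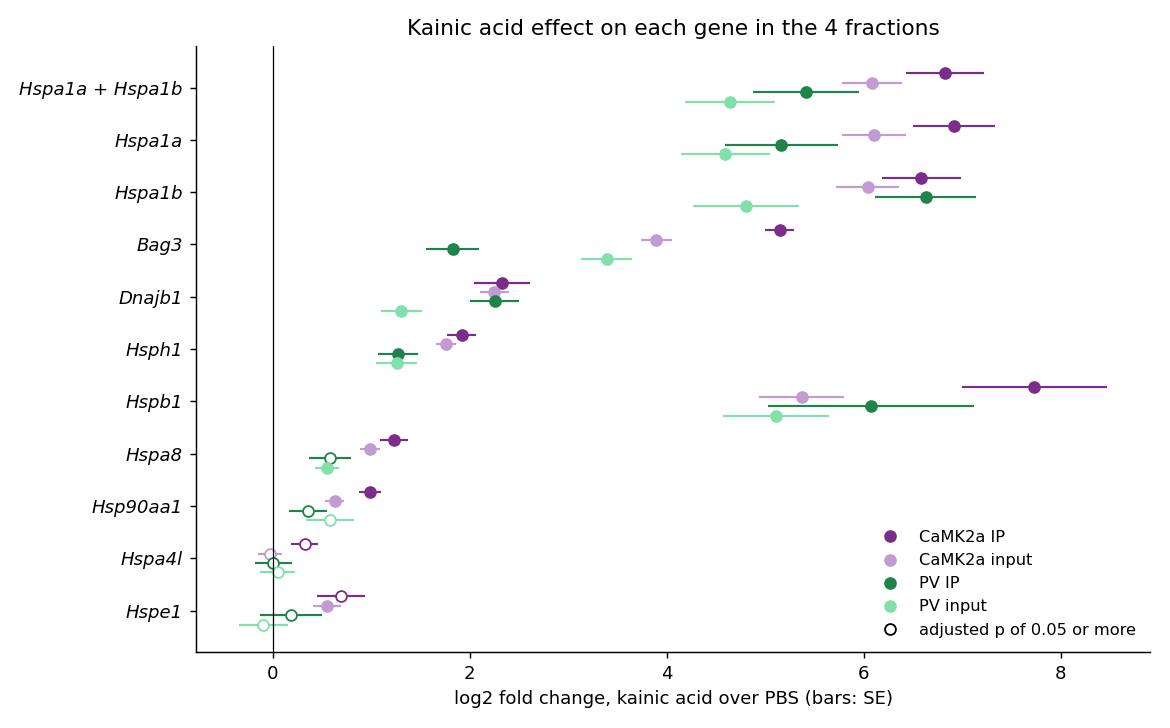
Log2 fold change of each gene, kainic acid over PBS, with its SE, in the 4 fractions. Filled points have an adjusted p under 0.05 and open points do not. Bag3 spreads most widely among the genes with small errors, with 5.15 in the CaMK2a IP and 1.83 in the PV IP, while Hspa4l lies near 0.

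The constitutive members changed less. Hspa8, the HSP70 that every cell makes, had 685, 482 and 703 CPM in the CaMK2a IPs after kainic acid, against 294, 255 and 255 CPM after PBS, and 381, 361 and 431 CPM in the CaMK2a inputs after kainic acid, against 196, 209.8 and 188 CPM after PBS. It rose by 1.23 ± 0.14 and 0.98 ± 0.10 on the log2 scale (edgeR adjusted p = 1.6e-04 in the IP). In the PV IPs it had 352, 354, 393 and 661 CPM after kainic acid, against 283, 332, 293 and 252 CPM after PBS, a log2 difference of 0.58 ± 0.21 that missed the threshold (edgeR adjusted p = 0.156). Replicate 4 was the highest of these IPs: from replicates 1 to 3 alone the difference was 0.26 ± 0.12 (adjusted p = 0.268), and without the kainic acid IP replicate 4 it was 0.31 ± 0.15 (adjusted p = 0.277). With all groups of the line in the fit it passed, at 0.58 ± 0.18 (adjusted p = 0.0452). The PV inputs held 380.1, 351, 435 and 404 CPM after kainic acid, against 282, 273, 259 and 238 CPM after PBS, and there Hspa8 rose by 0.55 ± 0.12 (edgeR adjusted p = 0.0106), a call lost with all groups of the line in the fit (adjusted p = 0.101). The kainic acid and PBS libraries of Hspa8 did not overlap in any fraction. Of all genes, 22.7%, 22.4%, 6.90% and 11.1% lay likewise wholly above PBS in the CaMK2a IP, the CaMK2a input, the PV IP and the PV input.

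Hsp90aa1, the stress-inducible HSP90 that matures kinases and receptors, had 887, 707 and 898 CPM in the CaMK2a IPs after kainic acid, against 444, 389.6 and 431 CPM after PBS, and 165, 176 and 150.0 CPM in the CaMK2a inputs after kainic acid, against 105, 111 and 102 CPM after PBS. It rose by 0.99 ± 0.11 and 0.63 ± 0.10 (edgeR adjusted p = 1.2e-04 in the IP). In the PV IPs it had 374, 403, 365 and 567 CPM after kainic acid, against 313, 397, 344 and 263 CPM after PBS, and the groups overlapped (log2 difference 0.35 ± 0.19, edgeR adjusted p = 0.397, and 0.10 ± 0.12 from replicates 1 to 3). The PV inputs held 374, 383, 349 and 202 CPM after kainic acid, against 253, 245, 232 and 128 CPM after PBS. Replicate 4 was the lowest library of both input groups, and the log2 difference of 0.58 ± 0.24 missed the threshold (edgeR adjusted p = 0.152). With the replicate number as a block the same difference was 0.58 ± 0.07 (adjusted p = 1.4e-06), and from replicates 1 to 3 alone it was 0.58 ± 0.08 (adjusted p = 1.0e-05). Without the kainic acid input replicate 4 it was 0.76 ± 0.19 (adjusted p = 0.0141).

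Hspe1, the mitochondrial HSP10 that caps the HSP60 chamber, rose in the CaMK2a input by 0.55 ± 0.14 on the log2 scale (edgeR adjusted p = 0.00567), with 54.0 to 77.0 CPM after kainic acid, against 41.9 to 46.3 CPM after PBS. The call was lost with all groups of the line in the fit (0.55 ± 0.22, adjusted p = 0.0639). In the CaMK2a IP it had 54.3, 25.1 and 50.1 CPM after kainic acid, against 24.9 to 29.2 CPM after PBS. Pool 2 was the low one there, and the difference of 0.69 ± 0.25 missed the threshold (edgeR adjusted p = 0.0516), while without that pool's IP it was 0.96 ± 0.13 (adjusted p = 1.2e-04). In the PV line Hspe1 ranged over 21.8 to 58.8 CPM in IPs after kainic acid, against 23.6 to 39.8 CPM after PBS, and over 22.9 to 47.6 CPM in inputs after kainic acid, against 29.1 to 43.2 CPM after PBS, with overlap in both. Its log2 differences were 0.18 ± 0.32 and -0.10 ± 0.25, and from replicates 1 to 3 alone -0.016 and -0.19.

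Hspa4l, an HSP110 relative of Hsph1, was not called in any fraction. It had 187 to 267 CPM in CaMK2a IPs after kainic acid, against 168 to 181 CPM after PBS, and 63.8 to 88.1 CPM in CaMK2a inputs after kainic acid, against 75.1 to 87.0 CPM after PBS. In the PV line it had 203 to 280.0 CPM in IPs after kainic acid, against 169.7 to 275 CPM after PBS, and 96.4 to 159.6 CPM in inputs after kainic acid, against 99.9 to 150.1 CPM after PBS. Its log2 differences were 0.32 ± 0.14, -0.03 ± 0.12, 0.003 ± 0.19 and 0.05 ± 0.18 in the CaMK2a IP, the CaMK2a input, the PV IP and the PV input, and -0.11 and 0.083 in the PV fractions from replicates 1 to 3. Without the kainic acid IP replicate 2 of the CaMK2a line the CaMK2a IP value was 0.41 ± 0.13 (edgeR adjusted p = 0.0236).

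Set in order by level per kb of listed length, the 10 genes changed places with treatment. In CaMK2a IPs after kainic acid Hsph1 averaged 678 CPM per kb, the sum of Hspa1a and Hspa1b 362, Hspa8 296, Hsp90aa1 269.9, Dnajb1 128 and Bag3 79.5. In the same IPs after PBS Hsph1 averaged 181 CPM per kb, Hsp90aa1 137, Hspa8 127, Dnajb1 25.8, the Hspa1a and Hspa1b sum 3.22 and Bag3 2.25. In PV IPs after kainic acid the sum reached 68.0 CPM per kb and Bag3 27.5, below Hsph1 at 335, Hspa8 at 209, Dnajb1 at 159 and Hsp90aa1 at 139. Over the 8 groups the sum averaged 1014 ± 484 CPM in CaMK2a IPs after kainic acid, 611 ± 299 in CaMK2a inputs after kainic acid, 191 ± 124 in PV IPs after kainic acid, 186 ± 116 in PV inputs after kainic acid, 9.15 ± 1.32 in CaMK2a inputs after PBS, 9.02 ± 0.144 in CaMK2a IPs after PBS, 7.29 ± 1.47 in PV inputs after PBS and 4.45 ± 2.88 in PV IPs after PBS (SD, n = 3 and 4). Libraries of neighbouring groups in that order overlapped at every step except between the 4 kainic acid groups and the 4 PBS groups. For Bag3 the order was 206 ± 29.3 CPM in CaMK2a IPs and 192 ± 28.2 in CaMK2a inputs after kainic acid, 102 ± 39.4 in PV inputs and 71.4 ± 14.6 in PV IPs after kainic acid, then 19.8 ± 5.34 in PV IPs, 12.9 ± 2.63 in CaMK2a inputs, 9.45 ± 1.16 in PV inputs and 5.85 ± 0.512 in CaMK2a IPs after PBS. Neighbours in the Bag3 order overlapped in 4 of 7 steps. They were apart between the 2 lines after kainic acid, between treatments, and at the last step. Between the lines the gap was narrow, with the lowest CaMK2a input at 159.5 CPM and the highest PV input, replicate 4, at 157 CPM. How many of all genes were apart at such steps was not counted.

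The IP against the input of the same pools asks whether a message was more or less abundant on the tagged ribosomes than in the tissue. In the CaMK2a line after kainic acid, Hsph1 (log2 difference 1.12 ± 0.17), Hspa8 (0.65 ± 0.16), Hsp90aa1 (2.32 ± 0.14) and Hspa4l (1.43 ± 0.18) were higher in the IP by edgeR and Hspb1 was lower (-1.36 ± 0.44, adjusted p = 0.0230), beside 24.3% of 11076 tested genes called higher and 25.8% lower. The Hspb1 call was lost without the kainic acid input replicate 1 (adjusted p = 0.0724) or 3 (adjusted p = 0.156). After PBS the same 4 genes were higher in the IP, with 1.01 ± 0.06, 0.46 ± 0.07, 2.01 ± 0.06 and 1.13 ± 0.07, and Bag3 (-1.12 ± 0.20, edgeR adjusted p = 1.1e-04), Dnajb1 (-0.36 ± 0.07) and Hspe1 (-0.68 ± 0.10) were lower, beside 32.6% of 11190 genes called higher and 31.6% lower. Hspb1 had too few counts to be tested after PBS in either line, so 9 of the 10 genes were tested there. Bag3 did not differ between IP and input after kainic acid beyond its error (0.09 ± 0.15, adjusted p = 0.664).

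The 2 libraries of a pool share a lysate, and blocking on the pool changed calls. In the CaMK2a line after kainic acid the block put Hspa1a (0.76 ± 0.13, edgeR adjusted p = 2.5e-05), Hspa1b (0.55 ± 0.12, adjusted p = 5.0e-04) and their sum (0.70 ± 0.12, adjusted p = 6.2e-05) higher in the IP, and Dnajb1 (-0.40 ± 0.15, adjusted p = 0.0272) and Hspe1 (-0.63 ± 0.17, adjusted p = 0.00289) lower. That made 6 of the 10 genes higher and 3 lower with the block, against 4 higher and 1 lower without it. Over all genes the block gave 2967 higher and 3102 lower of 11076, against 2689 and 2860 without it. The sum was higher in the IP than in the input in each of the 3 pools after kainic acid, by 1.498 to 1.91 times, and 0.870 to 1.18 times the input after PBS.

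In the PV line fewer members were called between IP and input, and so were fewer of all genes, so the lower count is not particular to the members. After kainic acid Dnajb1 (1.00 ± 0.24, edgeR adjusted p = 0.0168) and Hspa4l (0.83 ± 0.20, adjusted p = 0.0146) were higher in the IP, beside 6.85% of 11205 genes called higher and 4.11% lower (767 and 460 genes, and 651 and 627 with upper-quartile factors). Dnajb1 lost its call without the kainic acid input replicate 1 (adjusted p = 0.0544) or 2 (adjusted p = 0.0551), and Hspa4l without replicate 3 (adjusted p = 0.0509). After PBS Bag3 (1.10 ± 0.28, edgeR adjusted p = 0.0139), Hspa4l (0.86 ± 0.17, adjusted p = 0.0033) and Hsp90aa1 (0.65 ± 0.20, adjusted p = 0.0358) were higher in the IP, beside 10.6% of 11204 genes called higher and 7.98% lower. The Hsp90aa1 call was lost when any 1 of PBS input replicates 2 and 3 or PBS IP replicates 1, 2 and 3 was left out (adjusted p of 0.0565 to 0.111). The sum of Hspa1a and Hspa1b did not differ between IP and input beyond its error after kainic acid (0.09 ± 0.49) or after PBS (-0.69 ± 0.49).

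**Figure D3:**
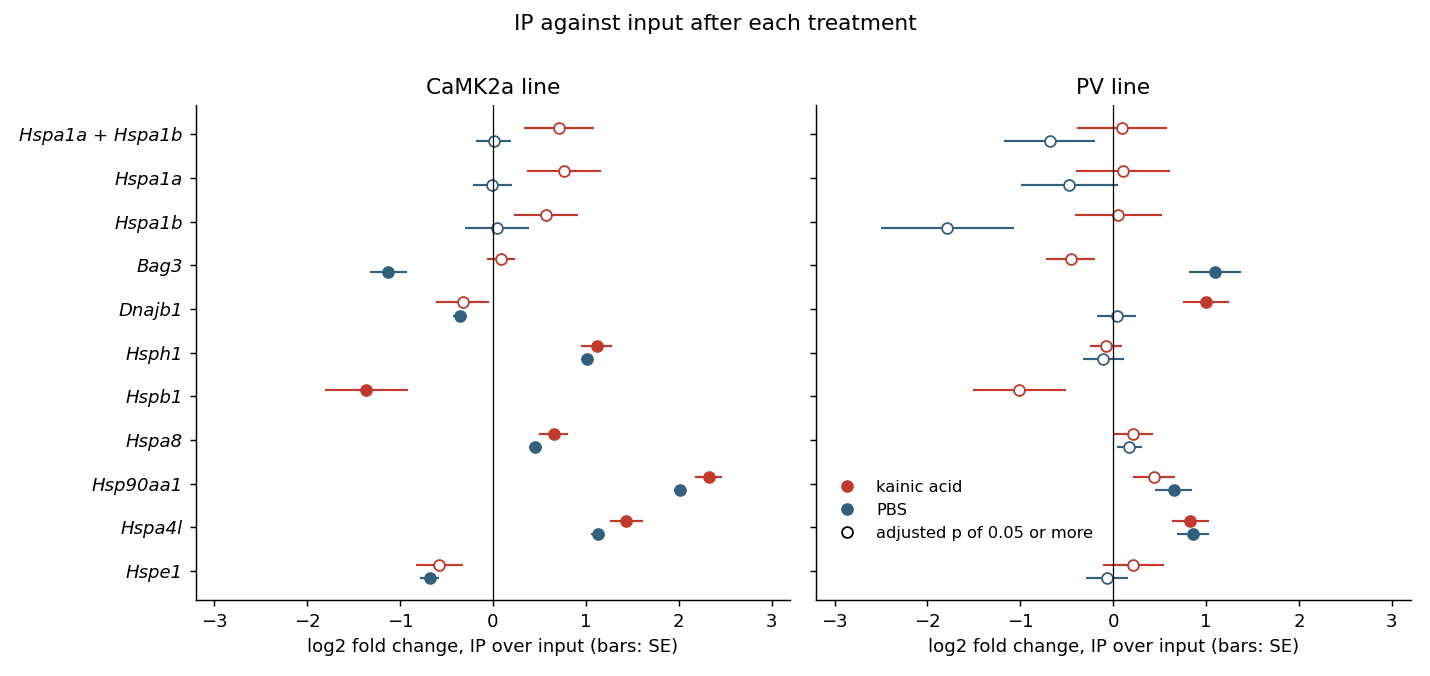
Log2 fold change of each gene, IP over input, with its SE, after kainic acid (red) and after PBS (blue) in the CaMK2a line (left) and the PV line (right). Filled points have an adjusted p under 0.05. Bag3 after PBS lies at -1.12 in the CaMK2a line and at 1.10 in the PV line, and Hsp90aa1 in the CaMK2a line lies at 2.32 and 2.01.

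The ratio of IP to input for Bag3 after kainic acid, set against that after PBS, was higher in the CaMK2a line and lower in the PV line. Within pools of the CaMK2a line its IP level was 0.955, 1.16 and 1.13 times the input after kainic acid, against 0.578, 0.392 and 0.423 times after PBS. Within pools of the PV line it was 0.750, 0.879, 0.747 and 0.573 times the input after kainic acid, against 1.74, 2.34, 1.83 and 2.34 times after PBS. The treatments did not overlap in either line, with the kainic acid ratios above the PBS ratios in the CaMK2a line and below them in the PV line. Kainic acid ratios also lay wholly above PBS ratios for Hspa1a and Hspb1 in the CaMK2a line. In the PV line they did so for Hspa1b, at 0.796 to 1.51 times against 0.195 to 0.376 times, and for Dnajb1. How many of all genes had ratios apart was not counted, so this is not read as a trait of Bag3. The test of the Bag3 difference, the kainic acid effect in the IP minus that in the input, gave 1.22 ± 0.24 in the CaMK2a line (edgeR adjusted p = 0.0607) and -1.53 ± 0.36 in the PV line (adjusted p = 0.452), neither past the threshold. Among all genes, 0.043% of 11623 were called higher and 0.0602% lower in the CaMK2a line, and 0.00843% of 11862 higher and 0.0169% lower in the PV line. With the pool as a block both passed, at 1.18 ± 0.18 (adjusted p = 0.00595) and -1.46 ± 0.24 (adjusted p = 0.0193), although PV replicates 1 to 3 alone gave -1.33 (adjusted p = 0.212). The CaMK2a value also passed without the kainic acid IP replicate 1 (1.29, adjusted p = 0.0158) or 2 (1.299, adjusted p = 0.0201).

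Dnajb1 in the PV line was 1.61 to 2.52 times as high in the IP as in the input after kainic acid, against 0.818 to 1.12 times after PBS. Its effect in the PV IP minus that in the PV input was 0.99 ± 0.34 (edgeR adjusted p = 1.00) and, with the block, 0.98 ± 0.18 (adjusted p = 0.0456). No other member's effect differed between IP and input past the threshold in either line, with or without the block.

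**Figure D4:**
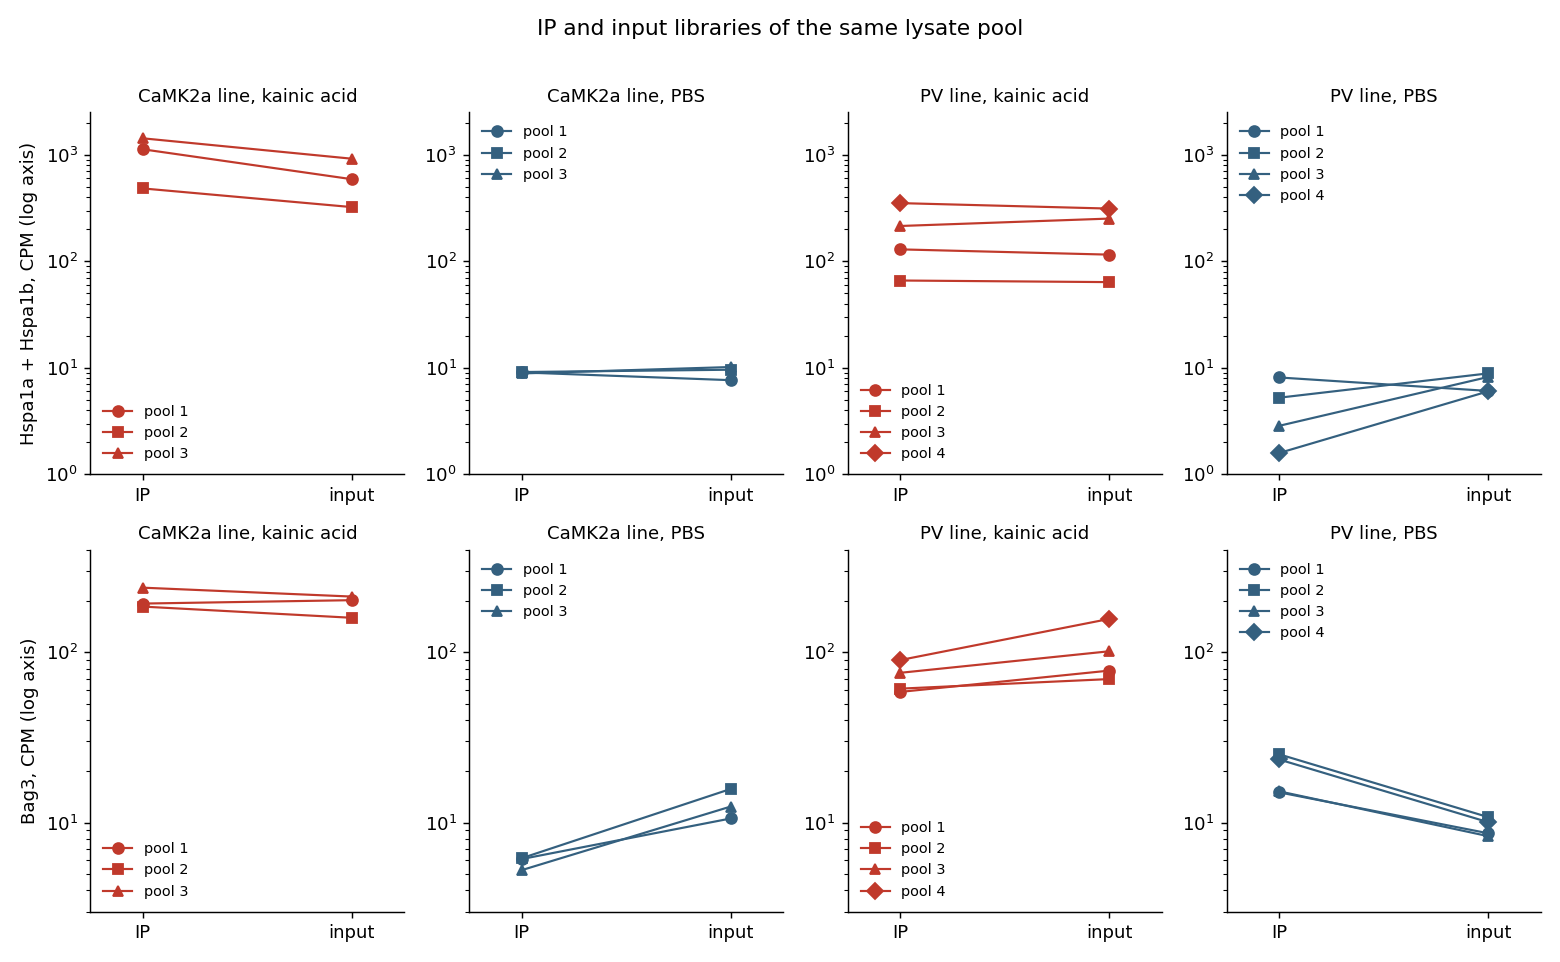
CPM, on a log axis, of the Hspa1a and Hspa1b sum (top) and of Bag3 (bottom) in the IP and the input of each pool, joined by a line, with kainic acid pools left of PBS pools for each Cre line. After PBS the Bag3 level of the IP lies below that of the input in the CaMK2a line and above it in the PV line. The pools keep the same order in the 2 fractions after kainic acid for the sum in both lines.

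For some members the pools stood in the same order in the IP and in the input. After kainic acid in the CaMK2a line, Hspa1a, Hspa1b, Bag3, Hspb1 and Hspa8 had the same order of the 3 pools in IP and input, pool 3 above pool 1 above pool 2, and the other 5 members did not. Hsp90aa1 was among these, with pool 3 highest in the IP and lowest in the input. In the PV line Hspa1a and Hspa1b ran pool 4, 3, 1 and 2 in both fractions, Hsph1 ran 3, 2, 1 and 4, and Hspe1 also kept its order, making 4 members in all. Dnajb1 kept its order in neither line, and pool 4 of the PV line was highest in the IP and lowest in the input for Hsp90aa1. After PBS 1 member in each line kept its order. The order of the pools is a description, since the pools carry no label besides their number. How many of all genes kept their order was not counted, so these counts are not read as a trait of the members. Over 7869 genes, the correlation of deviations from group means was also taken between the IP and input libraries of the same lysate. After kainic acid this ran from 0.235 to 0.388 in the CaMK2a line and from 0.198 to 0.616 in the PV line. After PBS it ran from 0.007 to 0.147, so close to 0 in the CaMK2a line, and from 0.177 to 0.690 in the PV line. For PBS replicate 2 of either line the best match of the IP was an input of another number. Hspa1a and Hspa1b share reads and are not independent.

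The kainic acid effect on Bag3 also differed between the 2 lines. The effect in the CaMK2a IP minus that in the PV IP was 3.31 ± 0.32 on the log2 scale (edgeR adjusted p = 4.9e-05), with an interval of 2.67 to 3.96, and it stayed between 3.13 and 3.45 in all the alternatives tried. It was 1 of 8 genes called higher among 11781 tested, 0.0679%, with 0.0255% called lower. In the inputs the same difference for Bag3 was 0.51 ± 0.35, with an interval of -0.18 to 1.21, and no gene of 11816 was called in either direction by edgeR (0.0% called, 336 at an unadjusted p under 0.05, and 4 higher by DESeq2). Bag3 averaged 206 CPM in CaMK2a IPs and 71.4 CPM in PV IPs after kainic acid, against 5.85 and 19.8 CPM after PBS, and the lines stood in opposite order in the 2 treatments. The astrocyte markers were higher in the PV IPs than in the CaMK2a IPs after both treatments, as given above, and the endothelial list summed to 5.67 to 19.1 CPM in CaMK2a IPs after kainic acid and 7.11 to 15.7 CPM after PBS, and to 38.0 to 62.8 CPM in PV IPs after kainic acid and 20.6 to 36.1 CPM after PBS. Oligodendrocyte markers summed to 534 to 1482 CPM in CaMK2a IPs after kainic acid and 701 to 1385 CPM after PBS, and to 4195 to 4993 CPM in PV IPs after kainic acid and 3438 to 5337 CPM after PBS. The part of these cells in the Bag3 difference was not tested, and pool size and RNA amount cannot be told apart from the line.

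For the Hspa1a and Hspa1b sum the effect in the CaMK2a IP minus that in the PV IP was 1.41 ± 0.70 (edgeR adjusted p = 0.827) and between the inputs 1.44 ± 0.63 (adjusted p = 1.00), so neither passed over all genes. From PV replicates 1 to 3 alone, Hspa8 (0.92 ± 0.19, edgeR adjusted p = 0.0450) and Hsp90aa1 (0.84 ± 0.16, adjusted p = 0.0400) joined Bag3 (3.30) as larger in the CaMK2a IP, while the calls over all genes grew to 39 higher and 31 lower of 11533 (8 and 3 of 11781 with all PV replicates). With all 4 PV replicates they were 0.65 ± 0.29 (adjusted p = 0.787) and 0.63 ± 0.25 (adjusted p = 0.711).

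Other chaperone genes, taken from lists by family, were called higher more often in the CaMK2a line than lower. The lists were fixed with earlier results of these data known, so the counts of list genes called are descriptions. Of 81 listed genes besides the 10, 68 were tested in the CaMK2a IP, with 32 higher and 3 lower, beside 19.8% of all genes higher and 15.3% lower. In the CaMK2a input 25 of 67 were higher and 3 lower, beside 19.3% and 15.7% of all genes. In the PV line the lists were close to the share of all genes called higher. In the PV IP 3 of 66 were higher and 0 lower, beside 4.05% and 0.801% of all genes, with 1 lower at an unadjusted p under 0.05 and 0 by DESeq2. In the PV input 5 of 66 were higher and 1 lower, beside 8.21% and 3.36%. The counts by family below are read against these same shares. The lists' median log2 fold change was 0.27 in the CaMK2a IP, 0.22 in the CaMK2a input, 0.10 in the PV IP and 0.13 in the PV input. With upper-quartile factors 25 were higher and 4 lower in the CaMK2a IP. With the replicate block 15 were higher and 3 lower in the PV input, 8 were higher there without the kainic acid input replicate 4, and 11 from replicates 1 to 3 alone. The effect in the CaMK2a IP minus that in the PV IP was called for 0 of these genes by edgeR and by DESeq2, with 4 higher and 2 lower at an unadjusted p under 0.05.

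The HSP70 family other than the members had 3 of 7 higher and 1 lower in the CaMK2a IP (19.8% higher and 15.3% lower over all genes). Hspa5, the HSP70 of the endoplasmic reticulum, rose in all 4 comparisons, by 1.78 ± 0.15 in the CaMK2a IP, 1.45 ± 0.09 in the CaMK2a input, 1.33 ± 0.25 in the PV IP and 1.28 ± 0.14 in the PV input. Hspa4, an HSP110, rose by 1.01 ± 0.10 in the CaMK2a IP and 0.64 ± 0.09 in the CaMK2a input, and Hspa9, the mitochondrial HSP70, by 0.64 ± 0.09 and 0.37 ± 0.10. Hspa12a, a distant HSP70 relative, fell by 0.79 in the CaMK2a IP, by 0.86 in the CaMK2a input and by 0.63 in the PV input, and was at -0.24 ± 0.17 in the PV IP.

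Among HSP40 co-chaperones 7 of 14 were higher and 2 lower in the CaMK2a IP (19.8% and 15.3% over all genes), 6 higher and 1 lower in the CaMK2a input (19.3% and 15.7%), 1 higher in the PV IP (4.05%) and 2 higher in the PV input (8.21%). Dnajb5 rose in all 4 comparisons, by 1.54 ± 0.11 in the CaMK2a IP, 1.86 ± 0.10 in the CaMK2a input, 1.34 ± 0.20 in the PV IP and 1.46 ± 0.18 in the PV input. Dnajb4 rose by 0.99 ± 0.23 in the CaMK2a IP, 0.65 ± 0.12 in the CaMK2a input and 0.84 ± 0.16 in the PV input, and was at 0.66 ± 0.19 in the PV IP (edgeR adjusted p = 0.0547). Dnaja1 and Dnaja4 rose by 0.95 ± 0.13 and 0.62 ± 0.12 in the CaMK2a IP and by 0.39 ± 0.10 and 0.73 ± 0.14 in the CaMK2a input, and were not called in the PV line.

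The chaperonins, which fold chains inside a closed barrel, were called higher for 8 of 8 tested genes in the CaMK2a IP, with a median of 0.51, beside 19.8% of all genes called higher and a median of 0.007, and for 3 of 8 in the CaMK2a input, beside 19.3%, 0 in the PV IP and 0 in the PV input, where DESeq2 and an unadjusted p under 0.05 also gave 0. The count in the CaMK2a IP was 6 to 8 over the alternatives, 7 with upper-quartile factors among them. Cct4 rose there by 0.64 ± 0.12, Cct8 by 0.62 ± 0.09, Cct3 by 0.57 ± 0.12 and Hspd1, the HSP60 partner of Hspe1, by 0.52 ± 0.14. Of 18 HSP90 family genes and co-chaperones 6 were higher in the CaMK2a IP (3 with upper-quartile factors) and 5 in the CaMK2a input (3 with upper-quartile factors), beside 19.8% and 19.3% of all genes, and 0 in either PV fraction by edgeR and DESeq2, with 1 in the PV IP at an unadjusted p under 0.05. Unc45a rose in the CaMK2a IP by 0.87 ± 0.21, and Hsp90b1, the HSP90 of the endoplasmic reticulum, by 0.35 ± 0.09. Stip1, which bridges HSP70 and HSP90, rose by 0.68 ± 0.08 in the CaMK2a IP and 0.58 ± 0.12 in the CaMK2a input, and Hsp90ab1, the constitutive HSP90, by 0.47 ± 0.07 and 0.35 ± 0.09.

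Small heat shock proteins other than Hspb1 were called higher for 2 of 5 in the CaMK2a IP, for 3 of 4 in the CaMK2a input, where the remaining 1 was lower, for 1 of 4 in the PV IP and for 1 of 4 in the PV input. The shares of all genes called higher were 19.8%, 19.3%, 4.05% and 8.21% in that order. Hspb6 rose in all 4 comparisons, by 1.83 ± 0.39 in the CaMK2a IP, 2.26 ± 0.21 in the CaMK2a input, 1.63 ± 0.37 in the PV IP and 2.17 ± 0.25 in the PV input. Of the 4 comparisons Hspb3 was tested in the CaMK2a IP only, at 1.49 ± 0.534 CPM after kainic acid and 0.418 ± 0.285 CPM after PBS. Its fitted change there was 1.77 ± 0.61 (edgeR adjusted p = 0.0467). A gene this low can pass the count filter through the kainic acid group alone, so its call is no independent support for a rise. DESeq2 called 1 of the small heat shock proteins higher in that IP. The 5 other BAG genes (Bag1, Bag2, Bag4, Bag5 and Bag6) were called in no comparison of kainic acid with PBS by edgeR or DESeq2, and 0 of them at an unadjusted p under 0.05.

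Of the heat shock factor list 3 of 4 were higher in both CaMK2a fractions, beside 19.8% and 19.3% of all genes, and 1 of 3 in the PV input, beside 8.21%. In both CaMK2a fractions the called genes were Hsf1, Hsf2 and Hsf2bp, the last a binding protein of HSF2 and not itself a factor. Hsf1, the main stress-activated factor, rose by 0.54 ± 0.11 in the CaMK2a IP and 0.43 ± 0.12 in the CaMK2a input, and was at 0.30 ± 0.28 in the PV IP and -0.12 ± 0.17 in the PV input. Hsf2 rose by 0.70 ± 0.15 in the CaMK2a IP, 0.86 ± 0.14 in the CaMK2a input and 0.81 ± 0.16 in the PV input, and was at 0.70 ± 0.33 in the PV IP. Hsf2bp was at 1.59 ± 0.139 CPM after kainic acid and 0.388 ± 0.173 CPM after PBS in the CaMK2a IP. Its fitted change there was 2.01 ± 0.50, and a gene this low can pass the count filter through the kainic acid group alone. Grpel1, the exchange factor of mitochondrial HSP70, rose by 0.57 ± 0.12 in the CaMK2a IP. Ubb, a polyubiquitin gene, rose by 0.63 ± 0.18 in the CaMK2a IP. Exons of Cct8, Dnaja1, Dnaja4, Grpel1, Hsf2bp, Hsp90b1, Hspa12a, Hspb6 and Hspd1 overlap a gene on the opposite strand.

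Over all 28 libraries, the genes whose log2(CPM + 1) was most like that of the Hspa1a and Hspa1b sum were Npas4 (Pearson r = 0.968), Arc (0.967), Nptx2 (0.966), Krt75 (0.966), Fosl2 (0.966) and Elmo1 (0.966). Among the members the likeness to Hspa1a was 0.945 for Hspb1, 0.935 for Bag3, 0.926 for Dnajb1, 0.876 for Hsph1, 0.864 for Hspa8, 0.454 for Hspe1, 0.368 for Hsp90aa1 and -0.012 for Hspa4l. The libraries fall into treated and untreated groups and share lines and lysates, so these values describe the split by treatment.

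In the authors' deposited table for the CaMK2a IP, the fold of kainic acid over PBS was 119 for Hspa1a, 34.9 for Bag3 and 212 for Hspb1. Hspe1 had an FDR of 0.0204 in the authors' deposited table, where the fit here gave an adjusted p of 0.0516.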

How the data were processed

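Ribosome-bound (IP) and input RNA of CA1 was amplified (SPIA) and sequenced as 75 bp single-end reads, per the labels' protocols. BWA, edgeR and the build mm10 are named in the submitters' processing notes; versions and strand use are not given in the sources used here. The deposited tables, split by direction, give each gene's raw read counts per library, with the authors' ratio (fold change) and p-value (FDR); 12 files were joined into 6 tables of 13384 to 14033 genes. The lowest row sum of counts was 4. The 84 deposited density columns were not used. Counts of libraries held in more than 1 table were the same in all 189281 cases.

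Counts were tested with edgeR 4.0.16 in R 4.3.3: filterByExpr (minimum count 10), TMM factors, quasi-likelihood F tests and Benjamini-Hochberg adjustment over all genes of a table at 0.05. All 10 genes passed the filter in each comparison except Hspb1 in IP against input after PBS. Fitted fold changes use a prior count of 0.125. SEs are the log2 fold change divided by the square root of F, and intervals are 2 SE to either side. Only the groups compared entered a fit; differences of effects were interaction terms over 4 groups. DESeq2 1.42.0, other factors and filters, left-out libraries, the replicate block and a fit over all groups of a line were alternatives. The scripts were tested on simulated data. Same-numbered libraries of an IP and its input come from 1 lysate. Between treatments the numbers are not stated to mean anything; deviations from group means correlated at 0.129 to 0.367 in CaMK2a inputs and 0.306 to 0.817 in PV inputs, which meets the pairing rule, and at -0.291 to 0.212 in CaMK2a IPs and 0.065 to 0.563 in PV IPs, which does not. In the inputs the best match was another number for replicate 2 of the CaMK2a line and replicates 2 and 3 of the PV line. The 0.817 belongs to PV replicate 4, the library with the low mitochondrial share. A pairing between treatments is therefore not established. The fits reported have no block, and the value with the block is given beside an input result where it changes the call or moves a count of calls by over 1.5 times.

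Members and lists were chosen with earlier results of these data known. The text names all members, up to 4 called genes per list with the largest change in the CaMK2a IP, and the 6 genes most like the Hspa1a and Hspa1b sum over 28 libraries. One gene that this rule would name is not reported here. Promoter windows are RefSeq's. Libraries held 6061339 to 15847300 counts. Python 3.11.15 was used for the rest.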

Additional observations from a re-analysis of the deposited data

Results flagged for a closer look

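Within the PV groups of 4 libraries, each member's highest and lowest library were set against the rest on the log2(CPM + 1) scale. Of 44 groups tested, 5 had a library farther from the others than Dixon's 95% critical ratio allows, and chance gives about 1 in 20. Dnajb1 in PV inputs after PBS was lowest in replicate 4, at 57.3 CPM. Hsp90aa1 was lowest in replicate 4 of the PV inputs, at 202 CPM after kainic acid and at 128 CPM after PBS. Hspa4l in PV IPs after kainic acid was highest in replicate 4, at 280.0 CPM, and Hsph1 in the same group was highest in replicate 3, at 1557 CPM. Replicate 4 is thus the library apart in 4 of the 5 cases. It is also the one with the lowest share of mitochondrial reads in each PV group, and the part of that in these levels was not tested.

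The kainic acid effect on Bag3 differed between the CaMK2a IP and the PV IP by 3.31 on the log2 scale (edgeR adjusted p = 4.9e-05). Within pools, the log2 ratio of IP to input of Bag3 after kainic acid minus that after PBS averaged 1.24 for CaMK2a pools and -1.49 for PV pools, with no overlap of treatments in either line, and the difference between these lines was not tested. How many of all genes had ratios without overlap was not counted.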

How the results depend on the processing

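Depth, 3 or 4 pools a group and amplified low-input RNA limit all values, and the lines differ in pooling and RNA amount. No alternative lowered a count of members higher after kainic acid below 8 in the CaMK2a IP, 8 in the CaMK2a input, 6 in the PV IP or 6 in the PV input. Over all results and alternatives, 1099 values of single genes kept direction and side of the threshold, 33 came to pass it, 15 lost it and 14 changed direction, and 379 counts of members stayed within 1.5 times and 19 did not. Changes of direction were in values near 0, and their cause was not tested. Leaving out 1 library at a time gave Hspa4l -0.11 to 0.089 in the CaMK2a input, -0.12 to 0.11 in the PV IP and -0.060 to 0.17 in the PV input, and gave Hspe1 -0.17 to 0.37 in the PV IP and -0.35 to 0.068 in the PV input. Upper-quartile factors gave Hspa4l -0.052 in the PV IP and -0.011 in the PV input, and PV replicates 1 to 3 gave -0.11 for Hspa4l and -0.016 for Hspe1 in the PV IP. Members lower in the CaMK2a IP than in its input after kainic acid numbered 1, but 2 with upper-quartile factors or all groups of the line, 0 with DESeq2, 3 with the replicate block and 0 to 3 with a library left out. Members higher in the PV IP than in its input after kainic acid numbered 2, and 1 to 2 with a library left out. Members lower after PBS numbered 0 there, and 1 with all groups of the line. The effect in the CaMK2a IP minus the input was called for 0 members, but for 1 with no filter, DESeq2 or the replicate block and 0 to 1 with a library left out. In the PV line the same count was 0, and 1 higher and 1 lower with the replicate block. The CaMK2a IP minus the PV IP had 1 member higher, and 3 from PV replicates 1 to 3. The replicate block changed no other count of members by over 1.5 times. Over all genes it moved PV input calls from 915 to 1835 higher and from 374 to 1590 lower, and PV IP lower calls from 89 to 248. In the PV IP, whose numbers did not meet the pairing rule, 3 of the other chaperone genes were higher, and 5 with DESeq2, 6 with the block and 7 with all groups of the line. Many counts over all genes moved by more than 1.5 times. The CaMK2a IP had 1633 genes lower after kainic acid, and 1013 and 979 without PBS IP replicate 1 or 3. The PV IP had 450 higher (776 with all groups of the line) and 89 lower (285 with all groups, 209 with DESeq2, 178 from replicates 1 to 3, and 30 to 164 with a library left out). The PV input had 915 higher (603 with all groups, 1608 from replicates 1 to 3) and 374 lower (214 with all groups, 658 with DESeq2, 1150 from replicates 1 to 3, and 196 to 616 with a library left out). For IP against input in the PV line after kainic acid, 767 were higher and 460 lower, and 1313 and 1082 with the block, 719 lower with DESeq2, and 486 and 234 without the kainic acid input replicate 3, 511 and 243 without 1, and 299 lower without 2. After PBS 894 were lower, and 1599 with the block and 581 without the PBS input replicate 2. For differences of effects DESeq2 called 37 higher and 46 lower in the CaMK2a IP minus input (5 and 7 by edgeR), 3 and 4 in the PV IP minus input (1 and 2), 23 and 20 in the CaMK2a IP minus PV IP (8 and 3), and the block called 26 and 31, 4 and 5, and 14 higher in these. PV replicates 1 to 3 gave 4 and 6 in the PV IP minus input and 39 and 31 in the CaMK2a IP minus PV IP. With a library left out the CaMK2a IP minus input ran from 2 to 29 higher and 3 to 39 lower, the highest without the kainic acid IP replicate 1 (24 and 39) or 2 (29 and 14). The CaMK2a IP minus PV IP ran from 2 to 18 higher and 0 to 6 lower, the highest without the PV kainic acid IP replicate 4. Between inputs, where edgeR called 0, the block called 5 higher and 2 lower and PV replicates 1 to 3 gave 3 higher. Upper-quartile factors moved the median of all genes for the CaMK2a IP against input to -0.15 after kainic acid (-0.02 with TMM) and -0.13 after PBS (-0.01 with TMM).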
